A study of Mus musculus with 18 samples.

Results

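The distal convoluted tubule is the short stretch of nephron between the thick ascending limb and the connecting tubule, and 10 genes of its salt and calcium handling were followed in mouse kidney after ischemia and reperfusion. They were chosen by name: Slc12a3, Pvalb, Calb1, Trpm6, Trpv5, Slc8a1, Wnk1, Wnk4, Stk39 and Klhl3. All 10 stood among the 20825 genes of the deposited table, and all 10 passed the filter on low values that left 14716 genes for testing (at least 1 FPKM in at least 3 of 18 libraries; FPKM counts a gene's fragments per kilobase and scales them to the library's mapped fragments). The samples came from C57BL/6 mice aged 11 weeks, with no transgene or deletion named in any group. Each of 6 groups had 3 biological replicates: unilateral ischemia-reperfusion (UIR) at 1, 3 and 21 days after surgery, and sham surgery at the same days. In UIR mice the blood supply of the right kidney was clamped for 45 minutes and reopened, while the left kidney was left alone. All groups shared isoflurane anesthesia and surgery. The labels name neither the sex nor which kidney was sequenced, and a UIR mouse keeps an unclamped kidney.

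Cells of the distal convoluted tubule take up sodium and chloride through the thiazide-sensitive cotransporter encoded by Slc12a3. A kinase chain controls it: WNK kinases (Wnk1, Wnk4) activate SPAK (Stk39), which phosphorylates the cotransporter, and the adaptor Klhl3 brings WNK kinases to a ubiquitin ligase. The same segment reabsorbs magnesium through the apical channel Trpm6. Its late part and the connecting tubule carry calcium from the apical channel Trpv5, bound to calbindin (Calb1), to the basolateral sodium-calcium exchanger Slc8a1. Parvalbumin (Pvalb), another calcium-binding protein, marks the early part of the mouse segment.

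All values are from whole kidney tissue, in which fewer cells of a type and less RNA per cell cannot be told apart. FPKM sums per library lay between 424207 and 438194 in UIR kidneys of days 3 and 21 and between 472823 and 549490 in the other groups, and read depth is unknown. Log2 folds are UIR minus sham on log2(FPKM + 1), a scale that understates the change of low genes, and are given ± SE with limma's adjusted p over all 14716 genes. A gene is said to rise or fall where that p is under 0.05. The share of all genes tested whose UIR and sham values do not overlap is not given, so non-overlap only describes a gene's values. All genes tested had a median log2 fold of -0.03, 0.44 and 0.53 at days 1, 3 and 21, so a gene near 0 at the later days stood below the middle of the transcriptome. UIR day-1 replicate 3 stood apart from its group. Its correlation with the other 2 libraries over all genes was 0.974 and 0.978, against 0.986 between those, and its summed proximal tubule markers were 667 FPKM, against 1690 and 1300 FPKM in UIR day-1 replicates 1 and 2.

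**Figure D1:**
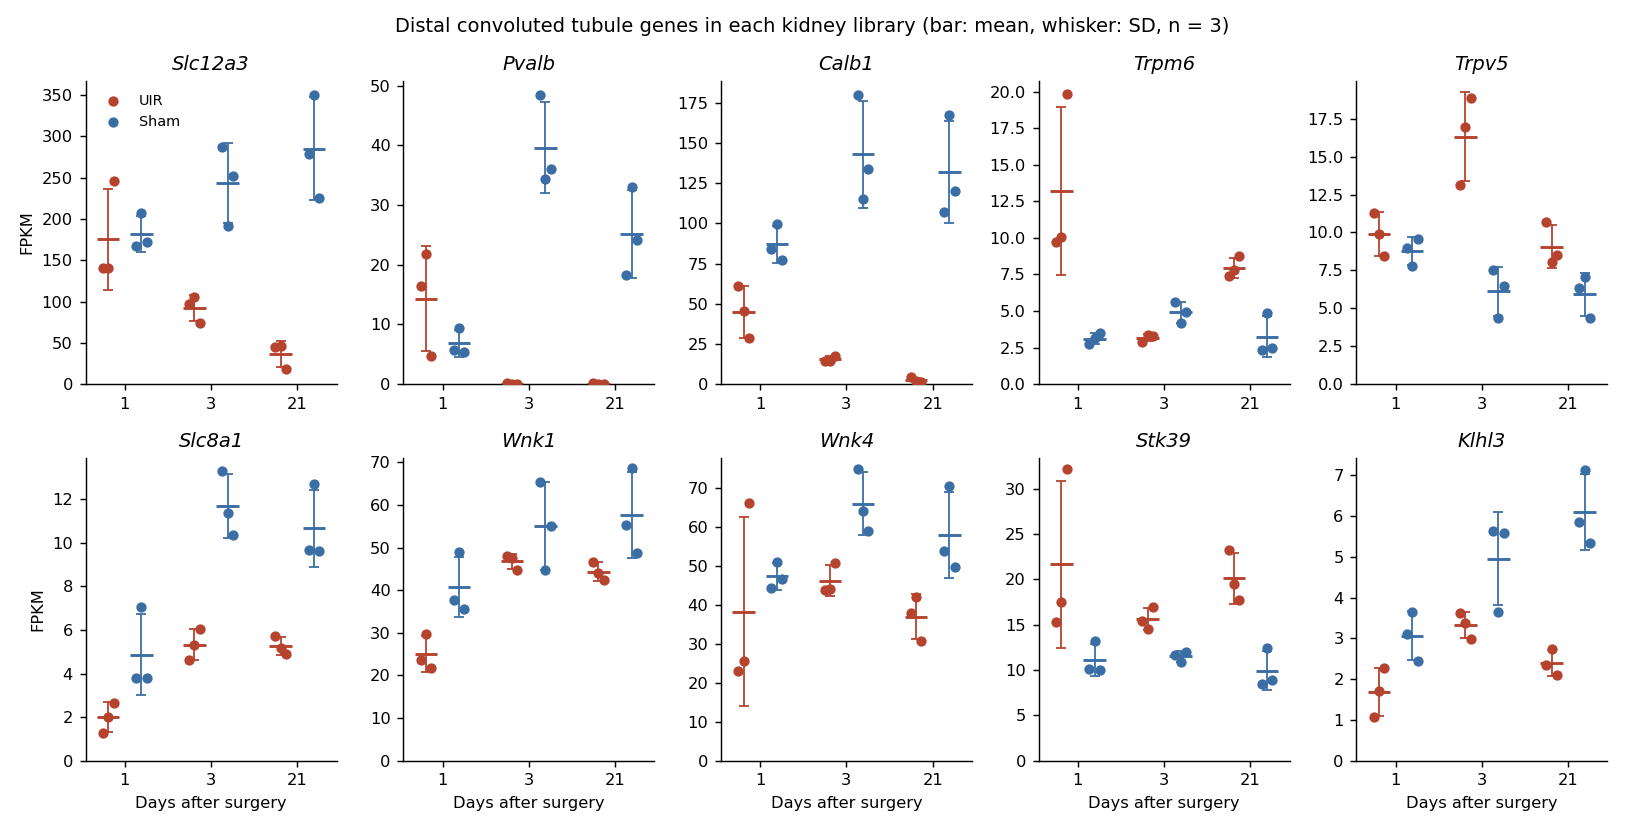
FPKM (vertical axis, from 0) of each of the 10 genes in the 18 libraries by day after surgery, with UIR in red to the left of sham in blue; points are libraries, bars are means and whiskers are SD of 3. Slc12a3, Pvalb and Calb1 are low in the UIR libraries of days 3 and 21, while Trpv5 and Stk39 are higher there than in sham.

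At day 1, 2 of the 10 genes rose in UIR kidneys, against 28.5% of all genes tested that were called higher, and 4 fell, against 31.1% called lower. At day 3, 1 rose, against a background of 57.6%, and 5 fell, against 17.9%. At day 21, 3 rose, against 60.7%, and 7 fell, against 20.1%. The 10 genes had a median log2 fold of -0.28, -0.50 and -0.76 at days 1, 3 and 21. The genes did not move as a block: Slc12a3, Calb1 and Pvalb carried the large decreases, the kinases and Klhl3 changed by less, and Trpv5, Trpm6 and Stk39 were each higher in UIR at 1 day or more.

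**Figure D2:**
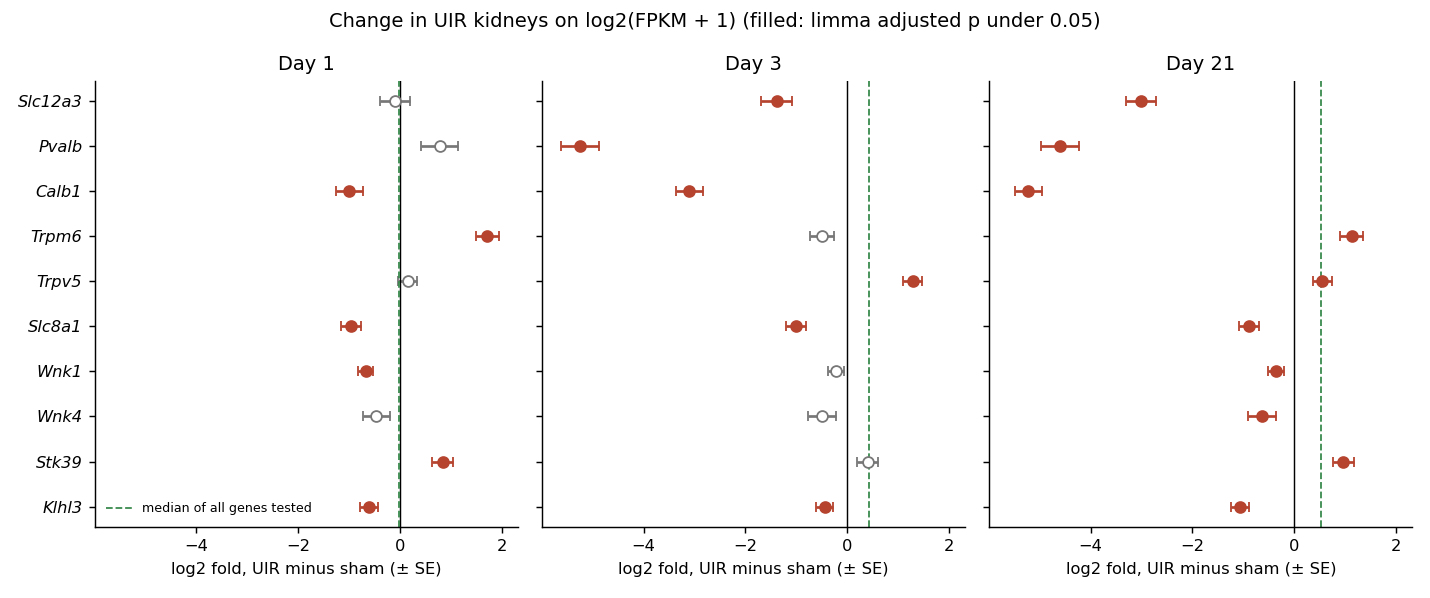
Log2 fold of UIR minus sham on log2(FPKM + 1) (horizontal axis, ± SE) for the 10 genes at each day; filled points have a limma adjusted p under 0.05, open points do not, and the dashed line is the median of all genes tested. The spread among the genes is wider at days 3 and 21 than at day 1, and Calb1 lies at -0.99, -3.10 and -5.22 at days 1, 3 and 21.

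Slc12a3, the cotransporter itself, had the highest mean FPKM of the 10 in each sham group. All 10 genes were detected in every sham library. At day 1 it had 140.2, 140.2 and 246 FPKM in UIR kidneys, against 167, 207 and 172 FPKM in sham kidneys. UIR replicates 1 and 2 lay below every sham kidney and replicate 3 above them, so the groups overlapped. The log2 fold was -0.10 ± 0.30 (adjusted p = 0.8), and it changed sign, to 0.04, without either UIR day-1 replicate 1 or replicate 2. At day 3 Slc12a3 had 97.0, 106 and 74.3 FPKM in UIR kidneys, against 287, 191 and 252 FPKM in sham kidneys. Every UIR value was below every sham value, and Slc12a3 fell by 1.39 ± 0.30 on the log2 scale (adjusted p = 0.00052). At day 21 the UIR kidneys had 44.7, 46.0 and 18.9 FPKM, against 279, 350.5 and 226 FPKM in sham kidneys. The groups were again apart, with a log2 fold of -3.01 ± 0.30 (adjusted p = 1e-07), and only 1.98% of genes tested had a lower one.

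Pvalb, the early-segment marker, reached the lowest values of the 10. At day 1 it had 16.5, 21.8 and 4.64 FPKM in UIR kidneys, against 5.67, 9.40 and 5.44 FPKM in sham kidneys. UIR replicates 1 and 2 were above all sham kidneys and replicate 3 was below them, and the log2 fold of 0.78 ± 0.37 did not pass (adjusted p = 0.081). It passed without UIR day-1 replicate 3 (1.39, adjusted p = 0.00012), without sham day-1 replicate 2 (0.999, adjusted p = 0.049) and with library weights (1.30, adjusted p = 0.0018). At day 3 Pvalb had 0.12, 0.06 and 0 FPKM in UIR kidneys, against 48.3, 34.4 and 36.1 FPKM in sham kidneys. At day 21 it had 0.14, 0 and 0 FPKM in UIR kidneys, against 18.2, 33.0 and 24.2 FPKM in sham kidneys. The transcript was thus near or at 0 in all 6 later UIR libraries and present in all later sham libraries. The fitted log2 folds were -5.25 ± 0.37 at day 3 (adjusted p = 3.1e-09) and -4.61 ± 0.37 at day 21 (adjusted p = 8.5e-09), and their size depends on the 1 FPKM added before the logarithm. At day 3 only 0.217% of genes tested had a lower log2 fold.

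Pvalb is also made by fast skeletal muscle fibres, and muscle markers were therefore read beside it. Of 7 such genes, 6 were in the table, 2 passed the filter, and their summed level ran from 0.88 to 6.57 FPKM in UIR kidneys and from 0.82 to 2.21 FPKM in sham kidneys. Ckm, muscle creatine kinase, was listed at 0 in every UIR library of day 1 and every sham library of days 1 and 3. Myh1, a fast myosin heavy chain, was listed at 0 in every UIR library of days 3 and 21 and in every sham library. In the sham kidneys of day 3 the muscle markers summed to at most 2.21 FPKM, while Pvalb alone had at least 34.4 FPKM.

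Bases upstream of the transcription start are shown for the early-segment marker, the cotransporter and Wnk4. They were chosen because these genes share the segment but differed in the size of their decrease. The sequences are RefSeq's, on build GRCm38.p6, cut to bases that no annotated exon covers and written 5′ to 3′ on the gene's strand. The cut left out the 99 bases next to the start for Slc12a3, 30 for Wnk4 and 0 for Pvalb. Bases left out were not searched, so a motif there would be missed. Pvalb lies at chr15:78206401-78206650 (minus strand), Slc12a3 at chr8:94328958-94329108 (plus strand) and Wnk4 at chr11:101260317-101260536 (plus strand). Capitals mark matches to GCCNNNGGC, the motif of AP-2 factors, the family of the segment's transcription factor Tfap2b.
Pvalb: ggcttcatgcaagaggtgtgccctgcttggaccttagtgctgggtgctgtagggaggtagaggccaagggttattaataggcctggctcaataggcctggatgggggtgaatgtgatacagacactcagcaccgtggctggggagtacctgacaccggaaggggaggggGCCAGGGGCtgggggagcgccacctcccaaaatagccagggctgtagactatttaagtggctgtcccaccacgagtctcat
Slc12a3: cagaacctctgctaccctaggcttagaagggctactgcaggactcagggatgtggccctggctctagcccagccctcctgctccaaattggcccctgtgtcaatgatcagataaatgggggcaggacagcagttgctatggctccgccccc
Wnk4: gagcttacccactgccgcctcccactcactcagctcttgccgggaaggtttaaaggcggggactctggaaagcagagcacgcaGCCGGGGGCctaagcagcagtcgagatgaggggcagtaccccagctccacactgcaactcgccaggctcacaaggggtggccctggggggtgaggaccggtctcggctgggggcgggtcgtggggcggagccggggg
Pvalb and Wnk4 each held 1 AP-2 match, and Slc12a3 held none in the bases printed. The motif reads the same on both strands, so a match has no strand. Of 32851 promoter windows of the same length, 13.7% held the AP-2 motif at 250 bases, 11.9% at 220 bases and 7.51% at 151 bases. The TATA box (TATAAA), the HNF1 motif, the steroid receptor half-site (AGAACA) and the ERR motif (TCAAGGTCA) were searched on both strands too and had no match in these 3 windows. At 250 bases they occurred in 12.4%, 0.0335%, 16.1% and 0.387% of windows. Of the 10 genes, 9 were in the promoter table and 5 had an upstream window of at least 100 bases.

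Calb1, the calcium-binding shuttle of the late segment and connecting tubule, fell at all 3 days. Day-1 values were 61.1, 45.3 and 28.5 FPKM in UIR kidneys, against 84.1, 99.6 and 77.3 FPKM in sham kidneys. Every UIR kidney was below every sham kidney (log2 fold -0.99 ± 0.27, adjusted p = 0.0048). At day 3 the values were 14.2, 14.7 and 17.8 FPKM in UIR kidneys, against 180, 115 and 134 FPKM in sham kidneys, and Calb1 fell by 3.10 ± 0.27 (adjusted p = 3.7e-08). At day 21 they were 4.18, 2.11 and 1.64 FPKM in UIR kidneys, against 107, 168 and 120.3 FPKM in sham kidneys. The groups stayed apart at each day, and the day-21 log2 fold of -5.22 ± 0.27 (adjusted p = 7.2e-11) was the lowest of the 10 genes at that day.

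Trpv5, the apical calcium channel that works with calbindin, did not follow it. Its day-1 values were 11.3, 9.92 and 8.44 FPKM in UIR kidneys, against 8.98, 7.77 and 9.58 FPKM in sham kidneys, and the groups overlapped (log2 fold 0.15 ± 0.19, adjusted p = 0.51). At day 3 it had 13.1, 17.0 and 18.9 FPKM in UIR kidneys, against 7.54, 4.35 and 6.49 FPKM in sham kidneys. All UIR kidneys were above all sham kidneys, and Trpv5 rose by 1.29 ± 0.19 (adjusted p = 1.2e-05), or by 0.81 (adjusted p = 0.0013) with median-of-ratios scaling and 0.79 (adjusted p = 0.0013) with quantile normalization. At day 21 it had 10.7, 8.04 and 8.49 FPKM in UIR kidneys, against 6.37, 7.08 and 4.35 FPKM in sham kidneys. The groups did not overlap, with a log2 fold of 0.55 ± 0.19 (adjusted p = 0.013) that equals the median of all genes to within 0.02 and turned to -0.15 (adjusted p = 0.47) under quantile normalization. Its call at day 21 was also lost under median-of-ratios scaling (0.01, adjusted p = 0.98), without UIR day-21 replicate 1 (0.44, adjusted p = 0.066) and without sham day-21 replicate 3 (0.38, adjusted p = 0.087). Trpv6, the closely related calcium channel, had 2.93, 3.35 and 3.23 FPKM in UIR kidneys at day 3, against 0.58, 0.57 and 0.50 FPKM in sham kidneys. At day 21 Trpv6 had 4.88, 5.52 and 9.21 FPKM in UIR kidneys, against 0.58, 0.48 and 0.64 FPKM in sham kidneys. It rose at both days, by 1.43 ± 0.17 (adjusted p = 1.1e-06) and 2.22 ± 0.17 (adjusted p = 4.1e-09).

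Slc8a1, the basolateral exchanger that completes calcium transport, fell at each day. It had 1.29, 2.02 and 2.66 FPKM in UIR kidneys at day 1, against 3.78, 7.04 and 3.8 FPKM in sham kidneys. At day 3 it had 4.64, 5.31 and 6.04 FPKM in UIR kidneys, against 13.3, 11.4 and 10.4 FPKM in sham kidneys. At day 21 it had 5.72, 5.19 and 4.89 FPKM in UIR kidneys, against 9.67, 12.7 and 9.64 FPKM in sham kidneys. UIR lay below sham without overlap at each day, and both groups were lowest at day 1. The log2 folds were -0.96 ± 0.20 (adjusted p = 0.00056), -1.0 ± 0.20 (adjusted p = 0.00022) and -0.89 ± 0.20 (adjusted p = 0.00057) at days 1, 3 and 21. Quantile normalization gave -0.84, -1.57 and -1.69 and median-of-ratios scaling -0.94, -1.47 and -1.42 at the same days. Slc8a1 is also made by muscle cells, and the summed level of 5 smooth muscle markers was 285 to 310.0 FPKM in UIR kidneys at day 21, against 27.2 to 34.1 FPKM in sham kidneys. The part of smooth muscle in the Slc8a1 value was not tested.

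Trpm6, the magnesium channel, moved in different directions with time. Day-1 levels were 9.69, 10.0 and 19.8 FPKM in UIR kidneys, against 2.73, 3.13 and 3.48 FPKM in sham kidneys. All UIR kidneys were above all sham kidneys, replicate 3 by the most, and Trpm6 rose by 1.72 ± 0.23 (adjusted p = 9e-06), with 98.0% of genes tested below it. By day 3 it had 2.91, 3.37 and 3.28 FPKM in UIR kidneys, against 5.63, 4.17 and 4.95 FPKM in sham kidneys. The groups did not overlap, but the log2 fold of -0.49 ± 0.23 did not pass (adjusted p = 0.06). It passed without sham day-21 replicate 2 (adjusted p = 0.031), without UIR day-1 replicate 3 (adjusted p = 0.015), with median-of-ratios scaling (-0.92, adjusted p = 0.0013) and with quantile normalization (-1.13, adjusted p = 0.00019). On TPM it was -0.30 (adjusted p = 0.28). At day 21 Trpm6 had 7.38, 7.78 and 8.73 FPKM in UIR kidneys, against 2.36, 4.86 and 2.49 FPKM in sham kidneys. It rose by 1.13 ± 0.23 (adjusted p = 0.00026) without overlap of the groups, a call that quantile normalization ended (0.34, adjusted p = 0.16). With median-of-ratios scaling the log2 fold was 0.61 (adjusted p = 0.017).

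Wnk1, an upstream kinase of the chain, had 23.6, 29.8 and 21.9 FPKM in UIR kidneys at day 1, against 37.7, 48.9 and 35.7 FPKM in sham kidneys. Wnk1 fell by 0.68 ± 0.15 (adjusted p = 0.0013), with no overlap. At day 3 the UIR kidneys had 47.9, 47.6 and 44.8 FPKM, against 65.3, 44.7 and 55.1 FPKM in sham kidneys. The log2 fold at day 3 was -0.21 ± 0.15 (adjusted p = 0.21), with overlap, and 0.07 on TPM, where its sign turned. With median-of-ratios scaling Wnk1 fell at day 3 (-0.74, adjusted p = 0.00025). At day 21 the values were 46.7, 44.0 and 42.4 FPKM in UIR kidneys, against 55.4, 68.7 and 48.8 FPKM in sham kidneys. The groups did not overlap, and Wnk1 fell by 0.36 ± 0.15 (adjusted p = 0.042). That call was lost on TPM (-0.17, adjusted p = 0.37) and without any 1 of 6 libraries, namely UIR day-3 replicate 2, each UIR day-21 replicate, and sham day-21 replicates 1 and 2 (log2 folds from -0.39 to -0.23, adjusted p from 0.0503 to 0.21). With median-of-ratios scaling it was larger (-0.97, adjusted p = 1.3e-05). The deposited table lists 5 RefSeq transcripts of Wnk1. The gene's single value does not separate its kidney-specific short form, which lacks the kinase domain, from the long form.

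Wnk4, a WNK kinase of the distal nephron, had 23.1, 25.6 and 66.3 FPKM in UIR kidneys at day 1, against 44.5, 51.2 and 46.6 FPKM in sham kidneys. UIR replicates 1 and 2 were below all sham kidneys and replicate 3 above them (log2 fold -0.46 ± 0.27, adjusted p = 0.16). Without UIR day-1 replicate 3 the log2 fold was -0.93 (adjusted p = 8.7e-05), and with library weights -0.66 (adjusted p = 0.012). At day 3 Wnk4 had 43.9, 44.2 and 50.8 FPKM in UIR kidneys, against 74.8, 64.2 and 59.0 FPKM in sham kidneys. UIR lay below sham without overlap, yet the log2 fold of -0.50 ± 0.27 did not pass (adjusted p = 0.11). It passed without UIR day-1 replicate 3 (adjusted p = 0.0036) and with median-of-ratios scaling (-1.02, adjusted p = 0.002), and on TPM it was -0.22 (adjusted p = 0.47). At day 21 Wnk4 had 38.1, 42.1 and 30.7 FPKM in UIR kidneys, against 53.8, 70.5 and 49.8 FPKM in sham kidneys. It fell by 0.63 ± 0.27 (adjusted p = 0.043), a call near the threshold. It was lost on TPM (-0.45, adjusted p = 0.14) and without any 1 of 9 libraries: UIR day-3 replicates 1 and 2, UIR day-21 replicates 1 and 3, sham day-1 replicates 1 and 3, sham day-3 replicate 2, and sham day-21 replicates 1 and 2 (log2 folds from -0.68 to -0.49, adjusted p from 0.0504 to 0.15). With median-of-ratios scaling it was larger (-1.24, adjusted p = 0.00035).

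Stk39, which encodes SPAK, was higher in UIR at days 1 and 21. At day 1 it had 15.3, 17.5 and 32.2 FPKM in UIR kidneys, against 10.2, 13.2 and 10.0 FPKM in sham kidneys. All UIR kidneys were above all sham kidneys, and Stk39 rose by 0.84 ± 0.21 (adjusted p = 0.0024), or by 0.53 (adjusted p = 0.0078) without UIR day-1 replicate 3. Its day-3 levels were 15.4, 14.6 and 16.9 FPKM in UIR kidneys, against 11.7, 10.9 and 12.03 FPKM in sham kidneys. The groups did not overlap, the log2 fold was 0.41 ± 0.21 (adjusted p = 0.085), and its sign turned with median-of-ratios scaling (-0.09) and quantile normalization (-0.05). The day-3 call was made without UIR day-1 replicate 3 (adjusted p = 0.013) and on TPM (0.70, adjusted p = 0.0076). At day 21 Stk39 had 23.2, 19.5 and 17.7 FPKM in UIR kidneys, against 8.43, 12.4 and 8.94 FPKM in sham kidneys. It rose by 0.96 ± 0.21 (adjusted p = 0.00045), again without overlap, and the log2 fold was 0.38 (adjusted p = 0.076) with median-of-ratios scaling and 0.53 (adjusted p = 0.021) with quantile normalization.

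Klhl3, the adaptor that marks WNK kinases for degradation, was lower in UIR at every day. Klhl3 had, at day 1, 1.08, 1.70 and 2.27 FPKM in UIR kidneys, against 3.11, 3.64 and 2.44 FPKM in sham kidneys. Day-3 levels were 3.62, 3.39 and 2.98 FPKM in UIR kidneys, against 5.63, 3.64 and 5.59 FPKM in sham kidneys. At day 21 it had 2.34, 2.74 and 2.10 FPKM in UIR kidneys, against 5.85, 7.13 and 5.33 FPKM in sham kidneys. The groups did not overlap at any day, and the margin was narrow at days 1 and 3. Klhl3 fell by 0.61 ± 0.17 (adjusted p = 0.0063) at day 1, by 0.44 ± 0.17 (adjusted p = 0.03) at day 3 and by 1.06 ± 0.17 (adjusted p = 3.2e-05) at day 21. The day-3 call was lost on TPM (-0.24, adjusted p = 0.31) and without UIR day-3 replicate 2 or 3 or sham day-3 replicate 1 or 3 (log2 folds from -0.45 to -0.36, adjusted p from 0.055 to 0.11). It was larger with median-of-ratios scaling (-0.87, adjusted p = 0.00018) and quantile normalization (-1.08, adjusted p = 9.6e-06), and at day 21 quantile normalization gave -1.93 (adjusted p = 7.5e-09).

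Whether these effects differed between days was tested as a difference of the UIR minus sham effects. From day 1 to day 3, 5 of the 10 genes passed, against 62.9% of all genes tested. Slc12a3 (-1.29, adjusted p = 0.014), Pvalb (-6.02, adjusted p = 1.3e-07), Calb1 (-2.11, adjusted p = 0.00019) and Trpm6 (-2.21, adjusted p = 2.6e-05) became lower relative to sham, and Trpv5 became higher (1.14, adjusted p = 0.0015). The Slc12a3 difference was lost under quantile normalization (-0.93, adjusted p = 0.12), and that of Trpv5 under it (0.62, adjusted p = 0.057) and under median-of-ratios scaling (0.62, adjusted p = 0.062). From day 3 to day 21, 5 of the 10 genes passed, against 46.2%. Slc12a3 (-1.62, adjusted p = 0.0052) and Calb1 (-2.12, adjusted p = 0.00034) became lower still, and Trpm6 turned upward (1.62, adjusted p = 0.00077). Trpv5 (-0.74, adjusted p = 0.032) and Klhl3 (-0.62, adjusted p = 0.049) also passed. The Trpv5 call was lost without UIR day-3 replicate 2 or 3, UIR day-21 replicate 2 or 3, sham day-3 replicate 2 or sham day-21 replicate 1 or 2 (from -0.71 to -0.55, adjusted p from 0.065 to 0.09). The Klhl3 call was lost without UIR day-1 replicate 2, any UIR day-3 replicate, UIR day-21 replicate 1 or 3, sham day-1 replicate 1, sham day-3 replicate 2 or sham day-21 replicate 1 or 2 (from -0.68 to -0.45, adjusted p from 0.053 to 0.14). Only 3 of the 10 genes passed without UIR day-3 replicate 2 or 3, UIR day-21 replicate 3, sham day-3 replicate 2, or sham day-21 replicate 1 or 2. From day 1 to day 21, 3 passed, against 70.4%: Slc12a3 (-2.91, adjusted p = 1.5e-05), Pvalb (-5.38, adjusted p = 2.3e-07) and Calb1 (-4.23, adjusted p = 1.2e-07).

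Within UIR kidneys, 8 of the 10 genes differed between day 3 and day 1, against 66.5% of all genes tested. Slc12a3 fell by 0.88 ± 0.30 (adjusted p = 0.016), and Pvalb (-3.63), Calb1 (-1.41) and Trpm6 (-1.69) fell too. The Slc12a3 call ended without UIR day-3 replicate 3 (-0.74, adjusted p = 0.067), without UIR day-1 replicate 3 (-0.61, adjusted p = 0.088), under quantile normalization (-0.735, adjusted p = 0.075) and with library weights (-0.63, adjusted p = 0.059). Trpv5, Slc8a1, Wnk1 and Klhl3 rose by 0.66, 1.10, 0.88 and 0.71, of which the Trpv5 and Klhl3 calls were lost under quantile normalization (0.37, adjusted p = 0.097 and 0.17, adjusted p = 0.35). The Trpv5 call was lost with median-of-ratios scaling as well (0.28, adjusted p = 0.21). Between day 21 and day 3, 4 of the 10 differed, against 56.2%. Slc12a3 fell by 1.40 (adjusted p = 0.00082), Calb1 fell by 2.24 (adjusted p = 3.7e-06) and Trpv5 fell by 0.78 (adjusted p = 0.0024), while Trpm6 rose by 1.10 (adjusted p = 0.00069).

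The sham kidneys of day 1 differed from those of later days. Between sham day 3 and sham day 1, 5 of the 10 genes differed, against 42.5% of all genes tested, and all 5 were higher at day 3. Pvalb averaged 39.6 ± 7.59 FPKM at day 3 and 6.84 ± 2.22 FPKM at day 1 (SD, n = 3 each), a rise of 2.39 (adjusted p = 9.6e-05), and Slc8a1 rose by 1.15 (adjusted p = 0.00023). Calb1 (0.69, adjusted p = 0.0498), Wnk1 (0.42, adjusted p = 0.036) and Klhl3 (0.54, adjusted p = 0.019) passed closer to the threshold. The Calb1 call was lost without any 1 of 12 libraries (UIR day-1 replicate 2, each UIR day-3 replicate, UIR day-21 replicate 2, each sham day-1 replicate, sham day-3 replicates 1 and 3, and sham day-21 replicates 1 and 3; adjusted p from 0.052 to 0.19). Those of Wnk1 and Klhl3 were lost without sham day-1 replicate 3 (0.34 and 0.43) or sham day-3 replicate 1 (0.29 and 0.46) or 3 (0.41 and 0.46), and that of Wnk1 also without sham day-1 replicate 1 (0.37). On TPM all 3 of these calls were lost (Calb1 0.58, Wnk1 0.32, Klhl3 0.51), and under quantile normalization that of Calb1 (0.53). The count was 8 without UIR day-1 replicate 3, 3 without sham day-1 or sham day-3 replicate 1, and 2 without sham day-1 or sham day-3 replicate 3. Between sham day 21 and sham day 3 none of the 10 passed with limma, against 0.034% of all genes tested, with 1 at an unadjusted p under 0.05 and 2 called with library weights, which called 11.9% of all genes. Between sham day 21 and sham day 1, 5 differed, against 39.4%: Pvalb (1.74, adjusted p = 0.0015), Slc8a1 (1.03, adjusted p = 0.00066), Klhl3 (0.81, adjusted p = 0.0016) and Wnk1 (0.49, adjusted p = 0.019) were higher at day 21 and Trpv5 (-0.51, adjusted p = 0.04) was lower. That count was 3 without sham day-1 replicate 1 or 3, where Wnk1 (0.44 and 0.40) and Trpv5 (-0.50 and -0.45) were lost. Wnk1 was lost too without sham day-21 replicate 2 (0.36), and Trpv5 without UIR day-3 replicate 2 (adjusted p = 0.0501) or sham day-21 replicate 1 (-0.57, adjusted p = 0.056) or 3 (-0.34, adjusted p = 0.2), with median-of-ratios scaling (-0.38, adjusted p = 0.13) and with quantile normalization (-0.33, adjusted p = 0.18).

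The choice of control therefore bears on day 1. Set against the 6 sham kidneys of days 3 and 21, UIR day-1 kidneys had 10 of 10 genes past the threshold, 3 higher, against 39.6% of all genes tested, and 7 lower, against 32%. Pvalb changed sign, with a log2 fold of -1.29 ± 0.32 (adjusted p = 0.0018). Slc12a3 (-0.62 ± 0.26, adjusted p = 0.042), Wnk4 (-0.83 ± 0.24, adjusted p = 0.0049) and Trpv5 (0.65 ± 0.16, adjusted p = 0.0021) passed with the later controls and not with sham day 1. The decreases of Slc8a1 (-2.04), Calb1 (-1.63), Klhl3 (-1.29) and Wnk1 (-1.13) were larger than against sham day 1, while Stk39 (0.89) and Trpm6 (1.46) stayed higher in UIR. Day and group are mixed in this comparison.

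**Figure D3:**
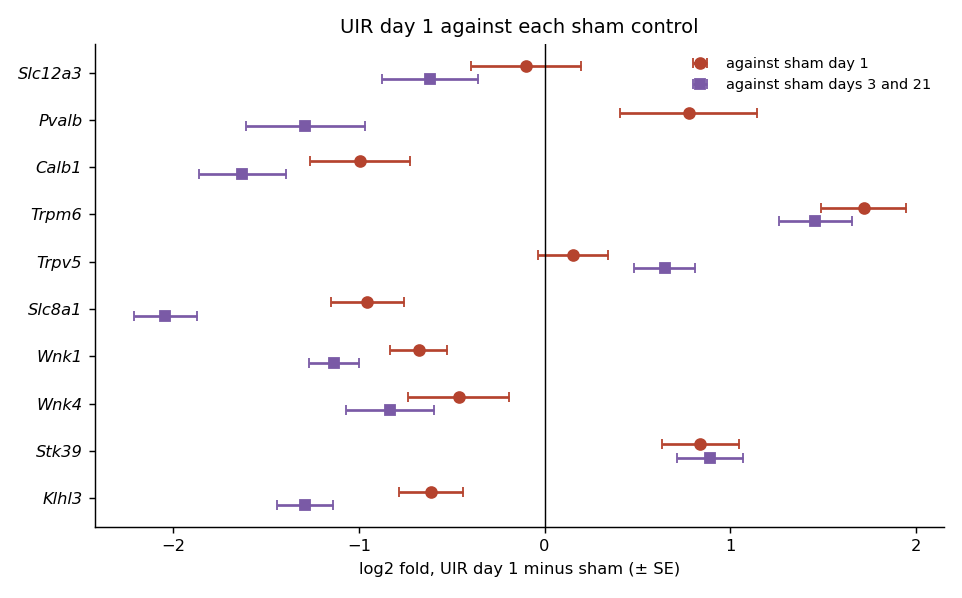
Log2 fold of UIR day 1 minus sham (horizontal axis, ± SE) on log2(FPKM + 1) for the 10 genes, against sham day 1 (circles) and against the pooled sham kidneys of days 3 and 21 (squares). Pvalb lies at 0.78 against sham day 1 and at -1.29 against the later sham kidneys.

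Ratios of FPKM within a library compare 2 genes without the scaling between libraries, and they are given as descriptions. The salt transporter of the distal convoluted tubule over that of the thick ascending limb (Slc12a3 over Slc12a1) had medians of 7.26, 0.951 and 0.238 in UIR kidneys at days 1, 3 and 21, against 4.10, 2.58 and 2.71 in sham kidneys. Slc12a1 itself had 185, 193 and 93.0 FPKM in UIR kidneys at day 21, against 105, 109 and 83.3 FPKM in sham kidneys. The Slc12a1 groups overlapped, with UIR replicates 1 and 2 above all sham kidneys. At day 1 the highest UIR ratio, 26.7, was that of replicate 3, in which Slc12a1 was 9.22 FPKM.

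Calb1 over Slc12a3 had medians of 0.323, 0.147 and 0.0869 in UIR kidneys at days 1, 3 and 21, against 0.481, 0.602 and 0.478 in sham kidneys. UIR was below sham without overlap at each day, so Calb1 was reduced more than Slc12a3 at days 3 and 21. At day 1 Slc12a3 itself was not called, and the lowest UIR ratio, 0.116, was that of replicate 3. Trpv5 over Slc12a3 had medians of 0.0708, 0.161 and 0.239 in UIR kidneys, against 0.0536, 0.0257 and 0.0202 in sham kidneys. Calb1 over Trpv5 had medians of 4.57, 0.943 and 0.262 in UIR kidneys, against 9.36, 23.8 and 23.7 in sham kidneys. Channel and calcium buffer thus changed places: Calb1 was the more abundant per length in all sham kidneys, and at day 21 Trpv5 was so in every UIR kidney. Trpm6 over Slc12a3 had medians of 0.0716, 0.0319 and 0.169 in UIR kidneys, against 0.0163, 0.0196 and 0.0110 in sham kidneys, higher in UIR at each day. Stk39 over Wnk4 had medians of 0.661, 0.333 and 0.576 in UIR kidneys, against 0.229, 0.169 and 0.176 in sham kidneys. Wnk1 over Wnk4 had 1.02, 1.08 and 1.23 in UIR kidneys, against 0.847, 0.873 and 0.981 in sham kidneys, and UIR replicate 3 at day 1 was the lowest of all at 0.330.

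**Figure D4:**
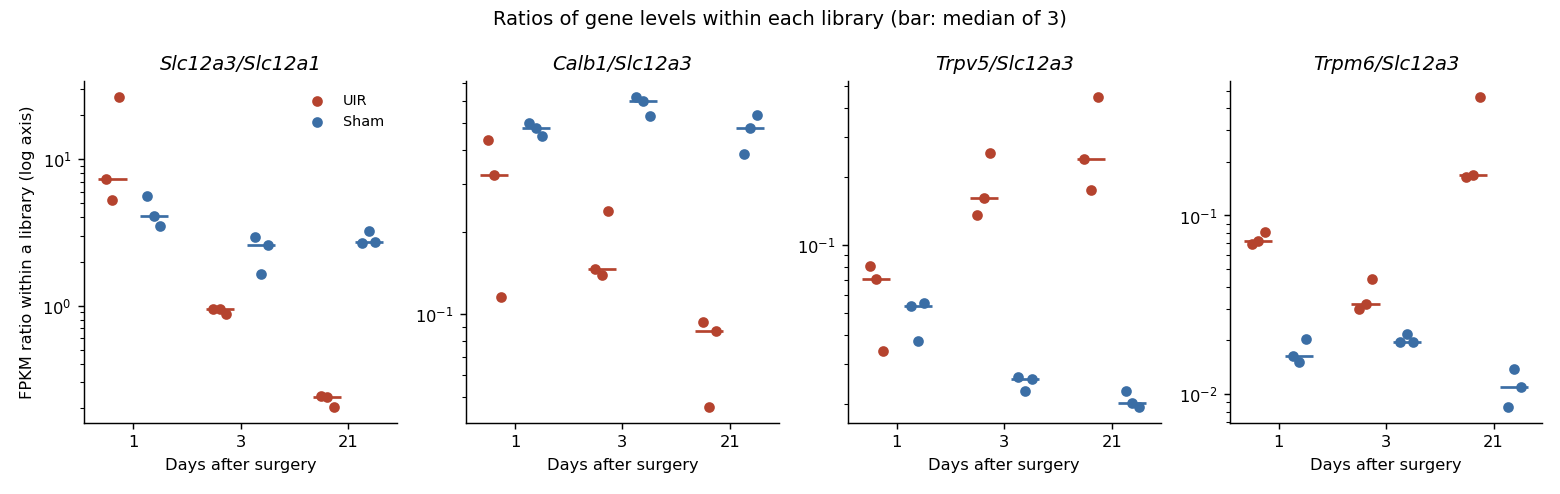
Ratio of FPKM values within each library (vertical log axis) for 4 gene pairs by day after surgery, UIR in red to the left of sham in blue; points are libraries and bars are medians of 3. Slc12a3 over Slc12a1 has a median of 0.238 in UIR kidneys at day 21, against 2.71 in sham kidneys, and Trpv5 over Slc12a3 has 0.239, against 0.0202.

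Other genes of the cotransporter's control were read from a list of 11, of which 10 passed the filter (all but Wnk3). In UIR kidneys 5 rose and 4 fell at day 1, 4 rose and 1 fell at day 3, and 4 rose and 3 fell at day 21. Among all genes tested, 28.5%, 57.6% and 60.7% were called higher at days 1, 3 and 21. Called lower were 31.1%, 17.9% and 20.1%. Hsd11b2, the enzyme that shields the mineralocorticoid receptor from glucocorticoids, averaged 17.9 ± 6.62 FPKM in UIR kidneys at day 1 and 80.4 ± 10.2 FPKM in sham kidneys (SD, n = 3 each), a log2 fold of -2.17 (adjusted p = 9.7e-07). At day 3 Hsd11b2 was higher in UIR, at 176 ± 15.1 FPKM in UIR kidneys and 112 ± 12.4 FPKM in sham kidneys (0.64, adjusted p = 0.02), and at day 21 its log2 fold was 0.11 (adjusted p = 0.68). The day-3 call was lost with median-of-ratios scaling (0.11, adjusted p = 0.69) and without UIR day-3 replicate 2 (0.60, adjusted p = 0.058), sham day-3 replicate 2 (0.62, adjusted p = 0.0503) or sham day-3 replicate 3 (0.58, adjusted p = 0.061). Sgk1, an aldosterone-induced kinase, averaged 143 ± 23.9 FPKM in UIR kidneys at day 1 and 48.6 ± 6.06 FPKM in sham kidneys, a rise of 1.53 (adjusted p = 1.6e-05). Nr3c2, the mineralocorticoid receptor, rose by 1.03 at day 3 (adjusted p = 0.00029), a call lost under quantile normalization (0.38, adjusted p = 0.11). In the main fit Nr3c2 also rose, near the threshold, at days 1 (0.51, adjusted p = 0.045) and 21 (0.47, adjusted p = 0.047). Ppp1r1a, a protein phosphatase inhibitor, fell by 2.10 at day 21 (adjusted p = 5.8e-08). The list's median log2 fold was 0.02, 0.18 and 0.10 at days 1, 3 and 21.

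Of 8 genes of the basolateral membrane, 1 rose and 4 fell at day 1, and 0 rose while 4 and 5 fell at days 3 and 21. The background was 28.5%, 57.6% and 60.7% of all genes tested called higher at days 1, 3 and 21. For lower it was 31.1%, 17.9% and 20.1%. Fxyd2, the gamma subunit of the sodium pump, averaged 557 ± 190 FPKM in UIR kidneys at day 21 and 3588 ± 168 FPKM in sham kidneys, a log2 fold of -2.75 (adjusted p = 2.5e-09). Kcnj10 and Kcnj16 are 2 genes whose products form the segment's basolateral potassium channel. Kcnj10 fell at days 1 (-1.54, adjusted p = 3.8e-05) and 21 (-0.81, adjusted p = 0.005) and was not called at day 3 (-0.25, adjusted p = 0.34). Kcnj16 fell at days 1 (-1.06, adjusted p = 3.7e-05), 3 (-0.75, adjusted p = 0.00055) and 21 (-1.68, adjusted p = 7.3e-08). Bsnd, the accessory subunit of the kidney chloride channels, fell by 2.09 at day 1 (adjusted p = 6.2e-08). The sodium pump and chloride channel subunits are made in other tubule segments too. The median log2 fold was -0.52, -0.36 and -0.89 at days 1, 3 and 21.

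Of 8 genes of magnesium handling, 7 passed the filter (all but Kcna1), and 1, 2 and 2 rose while 3, 4 and 5 fell at days 1, 3 and 21. Shares of all genes tested called higher were 28.5%, 57.6% and 60.7% at those days. Shares called lower were 31.1%, 17.9% and 20.1%. Egf, the magnesium-regulating growth factor of the distal nephron, averaged 7.88 ± 2.19 FPKM in UIR kidneys at day 21 and 236 ± 14.8 FPKM in sham kidneys, a log2 fold of -4.77 (adjusted p = 9.3e-08). Pcbd1, a cofactor of HNF1 factors, fell at day 21 (-2.38, adjusted p = 6.4e-10), and Cnnm2, a basolateral protein of magnesium transport, at day 1 (-1.41, adjusted p = 2e-08). Pcbd1 fell at day 3 (-1.92) as well, and Cnnm2 at days 3 (-0.55) and 21 (-0.94). Slc41a3, a magnesium carrier, rose by 1.41 at day 21 (adjusted p = 4.8e-07). The list's median log2 fold was -0.56, -0.44 and -0.86.

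Of 10 further calcium genes, 1, 4 and 3 rose and 4, 5 and 6 fell at days 1, 3 and 21. All genes tested had 28.5%, 57.6% and 60.7% called higher at those days, and 31.1%, 17.9% and 20.1% called lower. S100g, another cytosolic calcium-binding calbindin, averaged 44.2 ± 4.08 FPKM in UIR kidneys at day 21 and 720.2 ± 16.6 FPKM in sham kidneys, a log2 fold of -4.00 (adjusted p = 3.1e-12). Kl, which encodes klotho, averaged 11.3 ± 5.79 FPKM in UIR kidneys at day 21 and 229.5 ± 9.78 FPKM in sham kidneys, a log2 fold of -4.37 (adjusted p = 1.1e-09). Klk1, tissue kallikrein, fell by 2.41 at day 21 (adjusted p = 3e-07). Cyp24a1, which breaks down active vitamin D, averaged 101 ± 36.6 FPKM in UIR kidneys at day 3 and 14.1 ± 9.0 FPKM in sham kidneys, a rise of 2.86 (adjusted p = 7.8e-05). At the other days Cyp24a1 was lower in UIR, with 17.0 ± 9.25 FPKM in UIR kidneys at day 1 and 45.0 ± 19.0 FPKM in sham kidneys (-1.42, adjusted p = 0.022), and 4.23 ± 0.828 FPKM in UIR kidneys at day 21 and 28.2 ± 13.8 FPKM in sham kidneys (-2.38, adjusted p = 0.00038). Its day-1 call was lost without UIR day-1 replicate 2 (-0.89, adjusted p = 0.14), sham day-1 replicate 1 (-1.18, adjusted p = 0.087) or sham day-1 replicate 3 (-1.26, adjusted p = 0.075), with only the 6 libraries of the day (adjusted p = 0.059), and against the later sham kidneys (-0.25, adjusted p = 0.62). The list's median log2 fold was -0.37, -0.17 and -2.06 at days 1, 3 and 21.

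Of 7 transcription factors of the distal nephron, 0, 1 and 1 rose and 4, 3 and 5 fell at days 1, 3 and 21. In all genes tested, 28.5%, 57.6% and 60.7% were called higher at those days, and 31.1%, 17.9% and 20.1% lower. Tfap2b, an AP-2 factor of the segment, averaged 19.8 ± 1.55 FPKM in UIR kidneys at day 3 and 9.0 ± 0.903 FPKM in sham kidneys, a rise of 1.06 (adjusted p = 0.00025). Emx1 (-2.14, adjusted p = 1.9e-09), Lhx1 (-1.66, adjusted p = 1.2e-08) and Esrrb (-1.57, adjusted p = 3e-08), 3 homeobox or nuclear receptor factors, fell at day 21. The list's median log2 fold was -0.56, -0.26 and -0.75.

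**Figure D5:**
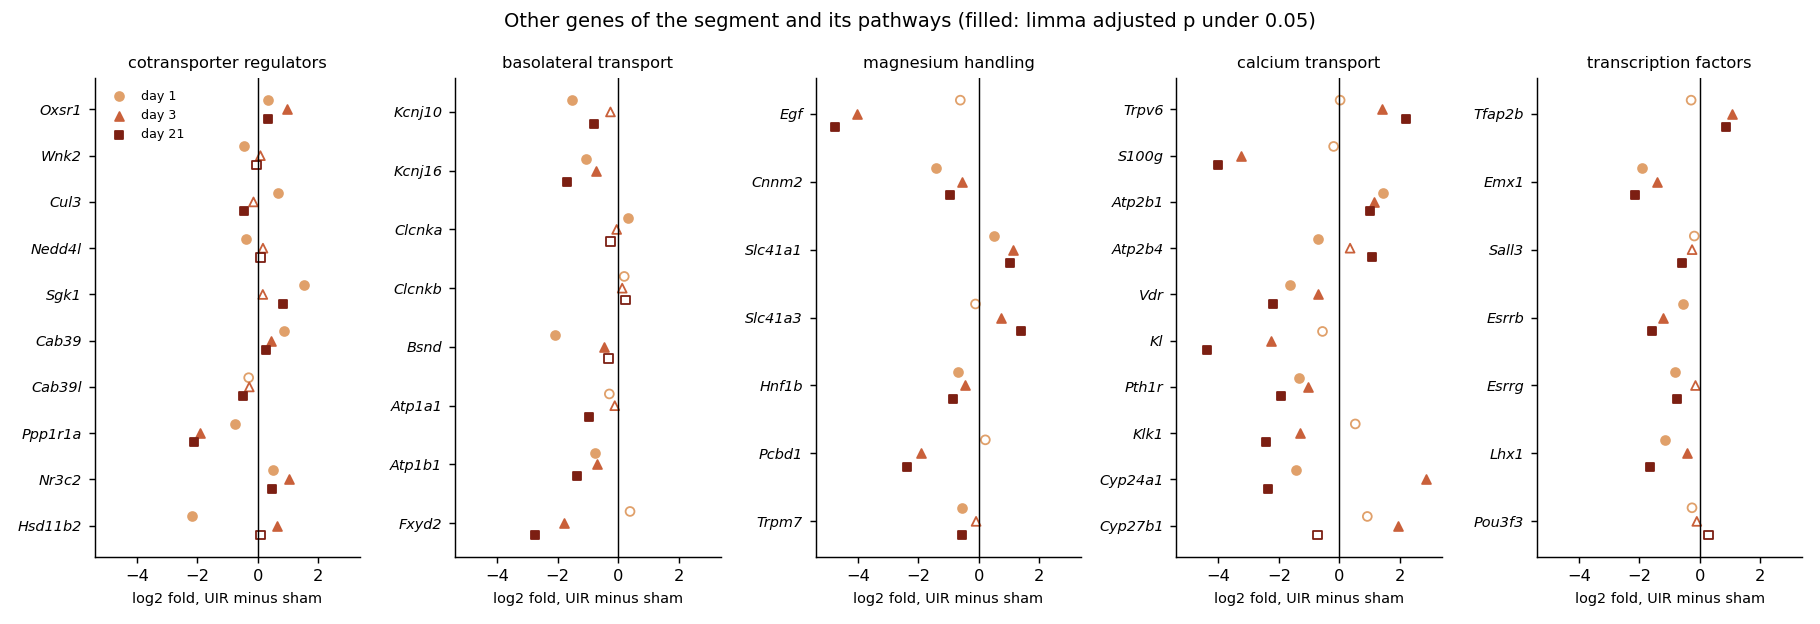
Log2 fold of UIR minus sham on log2(FPKM + 1) (horizontal axis) at days 1, 3 and 21 for the tested genes of 5 lists; filled symbols have a limma adjusted p under 0.05 and open symbols do not. Egf (-4.77), Kl (-4.37) and S100g (-4.00) lie far to the left at day 21 and Cyp24a1 (2.86) to the right at day 3.

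Markers of the neighbouring cell types moved in the same kidneys. Their counts stand beside 28.5%, 57.6% and 60.7% of all genes tested called higher at days 1, 3 and 21. Called lower were 31.1%, 17.9% and 20.1%. Of 7 thick ascending limb markers, 1, 2 and 1 rose and 4, 4 and 2 fell at days 1, 3 and 21, and their summed level at day 21 was 515 to 782 FPKM in UIR kidneys, against 921 to 1040.0 FPKM in sham kidneys. Umod was the largest part of that sum, at 390 ± 64.3 FPKM in UIR kidneys and 612 ± 53.9 FPKM in sham kidneys (SD). At day 21, 4 of the 7 were not called, and the list's median log2 fold was 0.11, against 0.53 for all genes. Kcnj1 (-2.71), Cldn10 (-1.84) and Slc12a1 (-1.26) fell at day 1. Cldn10 fell at days 3 (-1.565) and 21 (-1.74) too, Kcnj1 also at day 3 (-0.55), and Slc12a1 at neither. Cldn16 rose at days 3 (0.47) and 21 (1.39). Of 6 principal and connecting tubule cell markers, 3, 2 and 1 rose and 3, 3 and 4 fell, with sums at day 21 of 69.8 to 95.9 FPKM in UIR kidneys, against 156 to 193 FPKM in sham kidneys. The water channels Aqp2 (-3.51) and Aqp3 (-2.30) fell at day 21 and the vasopressin receptor Avpr2 (-1.06) at day 1. Avpr2 fell at days 3 (-0.80) and 21 (-0.83) too, Aqp2 at days 1 (-0.96) and 3 (-1.10), and Aqp3 at day 3 (-1.02). Fxyd4 was higher at days 3 (0.95) and 21 (1.07) as well as at day 1. Fxyd4 (1.15) and Aqp3 (0.91, adjusted p = 0.00067) rose at day 1, with Aqp3 at 108 ± 32.9 FPKM in UIR kidneys and 55.2 ± 5.32 FPKM in sham kidneys. These cells express Calb1, Trpv5 and Slc8a1 as well, and their part in those values was not tested.

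For intercalated cell and proximal tubule markers too, the background called higher was 28.5%, 57.6% and 60.7% at days 1, 3 and 21. The background called lower was 31.1%, 17.9% and 20.1%. Of 5 intercalated cell markers, 4, 1 and 2 rose and 1, 0 and 2 fell at days 1, 3 and 21. Their sums at day 1 were 126 to 241 FPKM in UIR kidneys, against 57.1 to 68.9 FPKM in sham kidneys, with rises of the chloride exchanger Slc26a4 (2.21), the transcription factor Foxi1 (1.52) and the proton pump subunit Atp6v1g3 (1.27). Foxi1 rose at days 3 (0.79) and 21 (0.98) too. At day 21 Slc4a1 (-1.47) and Slc26a4 (-1.54, adjusted p = 6.3e-05) fell, so Slc26a4 was higher in UIR at day 1 and lower at day 21. Of 7 proximal tubule markers, 3 fell at day 1 and 7 at both later days, with sums at day 21 of 57.5 to 294 FPKM in UIR kidneys, against 4070 to 4570 FPKM in sham kidneys. Slc22a6 (-5.73), Slc34a1 (-5.33), Lrp2 (-4.54) and Cubn (-4.32) fell at that day. The other 3 had log2 folds from -4.26 to -2.98, and that of Slc12a3, -3.01, lay within this range.

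Most macrophage, smooth muscle and endothelial markers were higher in the later UIR kidneys, as were 57.6% and 60.7% of all genes tested at days 3 and 21. Of 6 macrophage markers, 6 rose at days 3 and 21, with sums at day 21 of 2990 to 4220 FPKM in UIR kidneys, against 46.4 to 58.5 FPKM in sham kidneys, led by Lyz2 (7.43), Cd68 (5.42), C1qa (5.39) and C1qb (5.22). At day 1, 1 of the 6 rose, against 28.5% of all genes tested, 2 fell, against 31.1%, and 3 were not called. Cd68 rose (0.70, adjusted p = 0.022), and C1qa (-1.27, adjusted p = 0.00034) and C1qb (-0.63, adjusted p = 0.0085) were lower in UIR. C1qb did not pass against the later sham kidneys (-0.32, adjusted p = 0.088). Of 5 smooth muscle markers, 4 rose at day 3 and 5 at day 21, among them Tagln (3.52), Acta2 (3.06), Des (2.99) and Myh11 (1.44). Myh11 was lower in UIR at day 1 (-0.48, adjusted p = 0.024), a call lost without UIR day-1 replicate 1 (-0.31, adjusted p = 0.13) or sham day-1 replicate 1 (-0.44, adjusted p = 0.071) or 2 (-0.44, adjusted p = 0.074), under quantile normalization (-0.38, adjusted p = 0.052), with library weights (-0.40, adjusted p = 0.06) and with only the 6 libraries of the day (adjusted p = 0.06). Of 5 endothelial markers, 3 rose at day 3, against 57.6% of all genes tested, and 4 at day 21, against 60.7%. Those of day 21 were Pecam1 (1.59), Cdh5 (1.53), Emcn (1.31) and Egfl7 (1.27), and Kdr was not called at any day. The endothelial list's median log2 fold was 0.58 at day 3, against 0.44 for all genes, and 1.31 at day 21, against 0.53. Among the skeletal muscle genes, Acta1 rose at day 3 (1.78) with UIR values of at most 5.01 FPKM, and Mylpf rose at day 21 (0.43, adjusted p = 0.015). Under quantile normalization Mylpf was instead called lower (-0.45, adjusted p = 0.0093). It lay at 0.11 (adjusted p = 0.52) with median-of-ratios scaling and at 0.33 (adjusted p = 0.074) without UIR day-21 replicate 3. FPKM is a share of each library, so added RNA of other cells lowers the value of every other gene, and the part of this in the decreases was not tested.

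Scaling mattered for the small changes. With median-of-ratios scaling and quantile normalization the median log2 fold of all genes was 0.03 and 0.01 at day 3 and 0.03 and -0.01 at day 21, and on TPM it was 0.75 and 0.76 at days 3 and 21. Of all genes called, 76.3% at day 3 and 75.2% at day 21 were higher in UIR, against 51.3% and 51.0% with median-of-ratios scaling, 51.2% and 49.2% with quantile normalization, and 84.1% and 80.2% on TPM. Relative to the median of all genes, Slc12a3 was at -1.82 and -3.54, Calb1 at -3.54 and -5.75 and Pvalb at -5.68 and -5.14 at days 3 and 21. On the same footing Trpv5 was at 0.86 and 0.02, Trpm6 at -0.93 and 0.60, Stk39 at -0.03 and 0.43, Slc8a1 at -1.44 and -1.42, Klhl3 at -0.88 and -1.59, Wnk4 at -0.94 and -1.16, and Wnk1 at -0.65 and -0.89. Stk39 at day 3 and Trpv5 at day 21 were thus at the middle of all genes.

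The 3 genes whose day-3 groups did not overlap but did not pass, Trpm6, Wnk4 and Stk39, passed when the fit held only the 6 libraries of that day (adjusted p = 0.0066, 0.0045 and 0.003). The main fit already called 57.6% of all genes tested higher and 17.9% lower at day 3. The share of all genes called in the fit of 6 libraries, and the share whose groups did not overlap, are not given. No gain or separation particular to these genes is claimed. With library weights, which give less weight to libraries that vary more, all 10 genes passed at day 3, against 82.7% of all genes tested.

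Likeness to Slc12a3 and Pvalb was measured as Pearson's r of log2(FPKM + 1) over the 18 libraries, among 9391 genes with a mean of at least 5 FPKM. The 5 genes most like Slc12a3 were Acss1 (0.954), Pgam2 (0.953), Kif21a (0.952), Mpp6 (0.951) and Letm1 (0.946). Calb1 reached 0.935 and Pvalb 0.821, while Wnk4 (0.58), Klhl3 (0.55), Slc8a1 (0.328) and Wnk1 (0.139) were less alike and Trpm6 (-0.235), Trpv5 (-0.429) and Stk39 (-0.487) ran opposite. The 5 genes most like Pvalb were Nat8f1 (0.976), Wfdc15b (0.972), Ndufb9 (0.969), Ndufa13 (0.968) and Cox7a2 (0.967). The 18 points fall into 6 groups and share the UIR to sham difference, so r describes these libraries and has no test.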

How the data were processed

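RNA from frozen kidney tissue of 18 mice was sequenced. The deposited values are FPKM per gene in 1 table of 20825 genes, made by the authors with HISAT2 2.0.4, Bowtie2 2.2.5 and RSEM 1.2.12 on build mm9, per the submitters' processing notes, which do not give the role of each. Read counts are not used here and depth is unknown, so the number of libraries limits the precision and no counting interval is given. The promoter windows are on another build, GRCm38.p6, and no coordinates of the files were used.

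Genes with at least 1 FPKM in at least 3 of 18 libraries (14716) were analysed as log2(FPKM + 1). limma 3.58.1 in R 4.3.3 fitted 6 group means with a variance trend (12 residual degrees of freedom) and tested 11 contrasts, two-sided, with Benjamini-Hochberg adjustment over 14716 genes and a threshold of 0.05. With 3 libraries a group, exact permutation tests reach no p below 0.1 and were not run. The fit was tested on simulated data. Python 3.11.15 and pandas 2.3.3 made the summaries.

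The members and the gene lists were chosen with earlier results of these data known. Named beside the 10 genes are up to 4 genes per list with the largest change past the threshold at any day, with their calls in the other direction at other days, the 5 genes most like Slc12a3 and Pvalb, and genes a result turns on (Trpv6). A list gene is named at the day of its largest change, and its calls in the same direction at other days are not all printed. Alternatives were other pseudocounts and filters, TPM, median-of-ratios and quantile scaling, library weights, a replicate block, the 6 libraries of a day alone, later sham controls for day 1, and leaving out each library.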

Additional observations from a re-analysis of the deposited data

Results flagged for a closer look

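The effect of UIR against sham differed between days, by the test of the difference itself in limma, in 13 cases among the 10 genes. For day 3 minus day 1, 5 of the 10 passed, against 62.9% of all genes tested. For day 21 minus day 3 it was 5, against 46.2%, and for day 21 minus day 1 it was 3, against 70.4%. For Slc12a3 the differences were -1.29 (day 3 minus day 1, adjusted p = 0.014), -1.62 (day 21 minus day 3, adjusted p = 0.0052) and -2.91 (day 21 minus day 1, adjusted p = 1.5e-05). For Calb1 they were -2.11 (adjusted p = 0.00019), -2.12 (adjusted p = 0.00034) and -4.23 (adjusted p = 1.2e-07) in the same order. Both genes fell further below sham at each later day.

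For Pvalb the differences were -6.02 (day 3 minus day 1, adjusted p = 1.3e-07) and -5.38 (day 21 minus day 1, adjusted p = 2.3e-07). The sham level of Pvalb at day 1 was itself low, at 6.84 FPKM, and 4.64 FPKM in UIR day-1 replicate 3 lay below 16.5 and 21.8 FPKM in the other UIR libraries.

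For Trpm6 the differences were -2.21 (day 3 minus day 1, adjusted p = 2.6e-05) and 1.62 (day 21 minus day 3, adjusted p = 0.00077). For Trpv5 they were 1.14 (day 3 minus day 1, adjusted p = 0.0015) and -0.74 (day 21 minus day 3, adjusted p = 0.032), and for Klhl3 -0.62 (day 21 minus day 3, adjusted p = 0.049). The calls of Trpv5 and Klhl3 between days 3 and 21 were lost when 1 of several libraries was left out, and the Slc12a3 difference between days 1 and 3 under quantile normalization.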

How the results depend on the processing

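Of the 10 genes, the number past the threshold at day 1 was 10 against the later sham kidneys, where Pvalb turned to -1.29, and at day 3 it was 10 with library weights, each against 6. For the difference of effects between days 21 and 1 it was 5 with median-of-ratios scaling and 6 with quantile normalization, against 3. Between sham days 3 and 1 it was 3 without a filter, 3 on TPM and 9 with library weights, against 5, and between sham days 21 and 3 it was 2 with library weights, against 0. Leaving out 1 library gave 3 to 6 for the effects of days 21 and 3, 2 to 8 for sham days 3 and 1, and 3 to 6 for sham days 21 and 1. Signs turned for Slc12a3 at day 1 (from -0.368 to 0.036 over libraries left out, above 0 without UIR day-1 replicate 1 or 2), Wnk1 at day 3 (0.0654 on TPM), Stk39 at day 3 (-0.0899 with median-of-ratios scaling, -0.0506 with quantile normalization), Trpv5 at day 21 (-0.151) and Mylpf at day 21 (-0.451), the last 2 with quantile normalization. The turned value of Mylpf was itself a call (adjusted p = 0.0093). The cause of the turned signs was not tested. Library weights also called Pvalb (1.30) and Wnk4 (-0.665) at day 1, and without a filter on low values Wnk1 (adjusted p = 0.055) and Wnk4 (adjusted p = 0.061) at day 21 were lost. The decreases of Slc12a3, Pvalb and Calb1 at days 3 and 21 and the rise of Trpm6 at day 1 passed in every alternative run for them. The same held for Slc8a1 at each day, Klhl3 at days 1 and 21, Trpv5 at day 3, and Calb1, Wnk1 and Stk39 at day 1.

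With the replicate number as a block, 9 of 10 genes passed at day 21, against 10 (Wnk4, adjusted p = 0.053), and 4 passed for the effects of days 21 and 3, against 5 (Klhl3, adjusted p = 0.066), with no other change of call among the 10 genes. Same-numbered libraries of a day shared deviations with r from -0.07 to 0.113, over 0.1 in 2 of 9 pairs, so the numbers are not taken as pairs.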
